A study of Mus musculus with 24 samples.

Results

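Nnt, Wdfy1, Ide and Entpd4 are genes whose liver expression is known to differ between substrains of the C57BL/6 mouse, and they were taken by name as a check of the genetic background of Mup knockout mice. They are 4 of the 25746 genes counted in the liver RNAseq libraries. Counts were obtained for 3 of the 4, and all of these passed the filter on low values that left 12330 genes for testing. Entpd4 had a count of 0 in each of the 24 libraries and could not be compared.

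The libraries came from 24 mice aged 12 weeks on a strain background labelled C57/BL6N. The 4 groups of 6 mice were male wildtype (mWT), male KO (mKO), female wildtype (fWT) and female KO (fKO), with one library per mouse. KO mice lacked the whole cluster of genes for major urinary proteins, the pheromone-binding proteins that liver secretes for excretion in urine. The deletion was made by CRISPR/Cas9, the line goes back to a single male founder, and wildtype mice were littermates from heterozygous crosses, so that all groups shared the line. All mice had free access to a standard chow and were fasted before tissue was taken.

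Libraries held 15361901 to 26261394 counts, and 3 counts, taken as the smallest amount a library can show, equalled 0.113 to 0.199 CPM, the unit of all levels here, which is counts scaled to a common library total. The summed counts of 22 Mup genes, all on chromosome 4, ranged from 272548 to 741314 in mWT and from 70768 to 110248 in fWT mice, against 0 to 10 in mKO and 0 to 11 in fKO mice. Each Mup total counts reads over near-identical genes, so it is used here as a check of the labels only. The 7 hepatocyte markers summed to 95850 to 159700 CPM over all mice, while Pnlip and Cpa1, markers of the exocrine pancreas, were at 0 in 24 and 23 libraries.

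C57BL/6J and C57BL/6N mice descend from one inbred strain, were bred apart for decades and differ at a modest number of loci. Nnt encodes nicotinamide nucleotide transhydrogenase, an enzyme of the inner mitochondrial membrane that uses the proton gradient to make NADPH, which mitochondria need to remove peroxides. C57BL/6J mice carry a deletion of an internal block of its exons and lack the protein, whereas C57BL/6N mice have the intact gene. Ide encodes the insulin-degrading enzyme, a zinc metallopeptidase that takes part in hepatic insulin breakdown, and it lies in a segment that is duplicated in part of the C57BL/6J stock. Wdfy1 encodes an endosomal protein with a FYVE domain and WD repeats that takes part in signalling of Toll-like receptors, and Entpd4 encodes an apyrase of the Golgi apparatus and lysosome that hydrolyses nucleoside diphosphates and triphosphates. The levels of these genes by mouse were used to ask whether KO mice and their wildtype littermates differed in them. The genes lie on chromosomes 1 (Wdfy1), 13 (Nnt), 14 (Entpd4) and 19 (Ide), apart from the Mup genes on chromosome 4. In heterozygous crosses such loci are inherited independently of the deletion, so a comparison of KO and wildtype littermates can show little about background. A background that both genotypes share cannot show in it.

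The count of Entpd4 was read against its sequence. In the GENCODE M21 annotation of GRCm38, Entpd4 (ENSMUSG00000095463) occupies chr14:69337174-69367270 on the plus strand, and a copy named Entpd4b (ENSMUSG00000022066) occupies chr14:69555424-69585520 on the same strand. Of the 6 annotated Entpd4 transcripts, 5 had exactly the sequence of an Entpd4b transcript, including the longest of 3589 bases, in which 0 bases differed. The first 100 coding bases of this transcript, as long as one read of this study, are shown because they occur at both places, with the start codon in capitals.
Entpd4 and Entpd4b: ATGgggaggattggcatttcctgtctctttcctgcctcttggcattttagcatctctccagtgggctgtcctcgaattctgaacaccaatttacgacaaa
In Entpd4 the stretch spans chr14:69347587-69347594 and chr14:69349073-69349164, and in Entpd4b it spans chr14:69565837-69565844 and chr14:69567323-69567414, 2 exons of each gene. Every 100-base window of the annotated Entpd4 transcripts (11813 windows) and of the Entpd4b transcripts (10070 windows) was also found in a transcript of another locus. Entpd4b, too, had 0 counts in all 24 libraries.

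Genes built like this were seldom counted in these libraries. Of 267 protein-coding genes whose windows were all shared with another locus, 258 (96.6%) had no count in any library, compared with 2863 of 17258 (16.6%) among genes with no shared window. The share rose through the classes between them, from 38.0% to 69.4% and 82.7%. A count of 0 for Entpd4 therefore bounds only the reads assigned to this identifier, at up to 3 counts per library, and not the level of its transcript. Nnt, Wdfy1 and Ide had 0 shared windows, so their counts could come from unique reads.

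**Figure D1:**
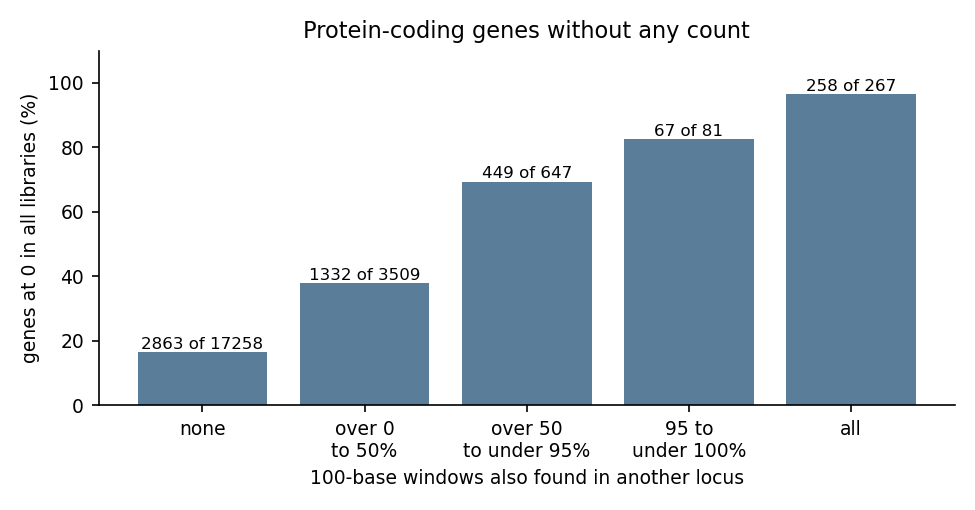
Share of protein-coding genes with a count of 0 in all 24 libraries (vertical axis, %), by the share of their 100-base transcript windows that also occur in another locus (horizontal axis), with the number of genes above each bar. The bars rise from 16.6% for genes with no shared window to 96.6% for genes in which all windows are shared, the class of Entpd4 and Entpd4b.

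Nnt was expressed in every mouse, and no difference between KO and wildtype mice was detected. In males its level was 121, 126 and 135 CPM (lowest, median and highest mouse) in mWT and 103, 127 and 140 CPM in mKO mice. Of the 6 mKO mice, 3 lay inside the range of mWT mice, 2 above and 1 below. In females the level was 136, 143 and 173 CPM in fWT and 135, 143 and 177 CPM in fKO mice. There 4 of 6 fKO mice lay inside the range of fWT mice.

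The mKO/mWT ratio of Nnt was 1.004 (95% interval 0.901 to 1.12, edgeR quasi-likelihood test, p-value of 0.947, adjusted p = 0.993). In females the ratio was 0.9998 (0.898 to 1.11, p-value of 0.996, adjusted p = 0.9999). With both sexes combined it was 1.002, with an interval from 0.928 to 1.08 (p-value of 0.965, adjusted p = 0.994), so that changes larger than these bounds lay outside the interval. Counts of Nnt lay between 1895 and 3830 per library.

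The counts of Nnt concern the exons of the reference genome. Nnt (ENSMUSG00000025453, chr13:119335448-119408997, minus strand) is overlapped by a second gene of the same name on the same strand (ENSMUSG00000116207, chr13:119335528-119408952). The second identifier held 99.0 to 99.6% of the counts of the first in each library, a difference of 11 to 29 counts, so reads over both genes were counted for both, and the values of the second identifier are not further evidence. The reference is that of C57BL/6J, which lacks the deleted exons, so reads from these exons could not be counted in any mouse, and the table by gene does not show whether a mouse carries them.

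Wdfy1 had much the same mean in every group, between 35.5 and 36.8 CPM. Its level in males was 33.5, 35.6 and 43.8 CPM (lowest, median and highest mouse) in mWT and 32.0, 36.5 and 39.6 CPM in mKO mice. In females it was 31.7, 36.5 and 38.2 CPM in fWT and 34.0, 36.1 and 40.6 CPM in fKO mice. The group ranges overlapped in every comparison, with 5 of 6 mKO and 4 of 6 fKO mice inside the wildtype range of their sex.

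The ratio of Wdfy1 was 0.986 for mKO/mWT (0.893 to 1.09, p-value of 0.777, adjusted p = 0.961) and 1.04 for fKO/fWT (0.939 to 1.14, p-value of 0.460, adjusted p = 0.958) by edgeR's quasi-likelihood test. Over both sexes it was 1.01 (0.943 to 1.08, p-value of 0.747, adjusted p = 0.949). Wdfy1 (ENSMUSG00000073643) occupies chr1:79702262-79776143 on the minus strand, and 126 bases at its start overlap Mrpl44, which is transcribed the other way.

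Ide was the member in which males and females did not overlap in either genotype, whereas KO and wildtype mice of each sex did. Its level in males was 105, 111 and 122 CPM (lowest, median and highest mouse) in mWT and 108, 116 and 119 CPM in mKO mice, and all 6 mKO mice lay inside the mWT range. In females it was 80.5, 83.9 and 91.7 CPM in fWT and 81.7, 92.5 and 99.7 CPM in fKO mice. Among fKO mice, 4 lay above every fWT mouse and 2 within their range.

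The mKO/mWT ratio of Ide was 1.02 (0.943 to 1.11, edgeR quasi-likelihood test, p-value of 0.580, adjusted p = 0.918). In females the ratio was 1.07 (0.985 to 1.16, p-value of 0.106, adjusted p = 0.929), and over both sexes it was 1.05 (0.987 to 1.11, p-value of 0.126, adjusted p = 0.652). Ide (ENSMUSG00000056999) occupies chr19:37268743-37337852 on the minus strand. Its neighbour Fgfbp3, which shares the segment duplicated in C57BL/6J stock, had 0 to 7 counts per library and was not tested.

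None of the 3 members passed the threshold of the study, an unadjusted p-value under 0.01, for any effect of the KO. At this threshold 434 of all genes tested (3.52%) were called in males, 108 (0.876%) in females and 349 (2.83%) over both sexes. The test of the difference between the male and the female KO effect called 143 genes (1.16%), and its p-value was 0.960 for Nnt, 0.471 for Wdfy1 and 0.438 for Ide. Without mWT mouse 5 the count in males was 284, and without fKO mouse 2 the count over both sexes was 225. The median log2 fold change of the KO over both sexes was 0.016 for the 3 members and -0.0030 for all genes tested.

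**Figure D2:**
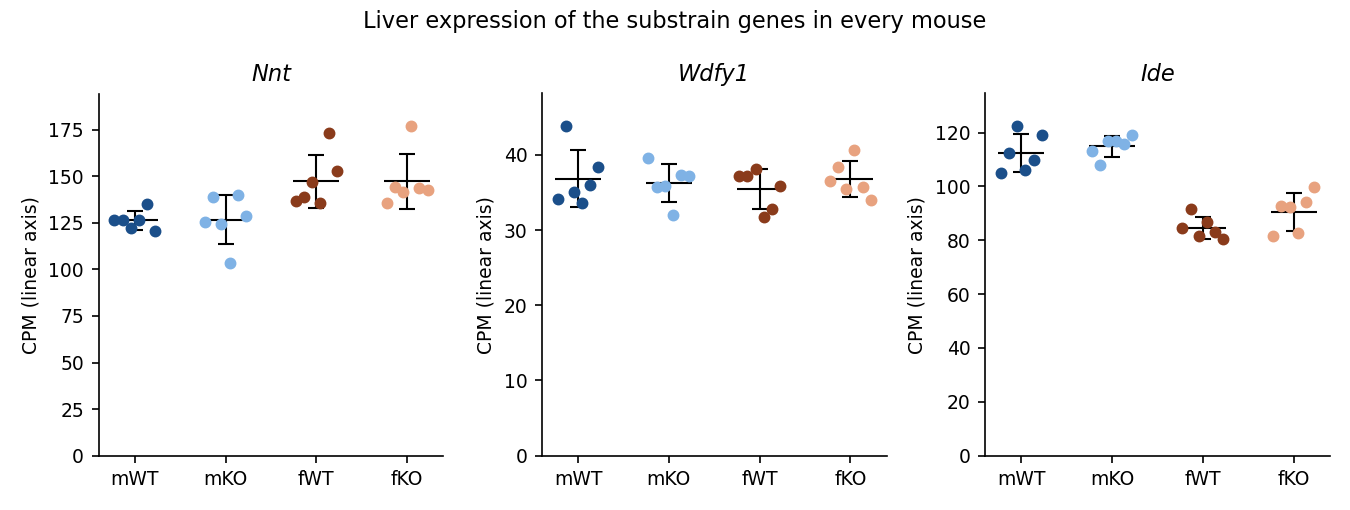
CPM (linear axes) of Nnt, Wdfy1 and Ide in every mouse by group, with 6 mice per group, where points are mice and bars give the mean ± SD. The KO groups sit at the level of the wildtype groups of their sex for Nnt and Wdfy1, with mean CPM of 126 and 127 in mWT and mKO mice for Nnt, and Ide separates males (105 to 122 CPM) from females (80.5 to 99.7 CPM).

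The spread between mice was small for all 3 members. Within groups, the SD of log2 CPM was 0.127 for Nnt, 0.113 for Wdfy1 and 0.0831 for Ide, against a median of 0.2005 over all genes tested. Of the genes tested, 1.52% had a smaller SD than Ide, 9.69% a smaller one than Wdfy1 and 16.6% a smaller one than Nnt. These shares were not matched for level, and genes with few counts tend to a larger SD from counting alone. The highest mouse exceeded the lowest by 1.71-fold for Nnt, 1.38-fold for Wdfy1 and 1.52-fold for Ide over all 24 mice.

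The steps between neighbouring mice in the order of levels were measured as a description. What step another background would give was not measured here, and for Nnt the deleted exons were outside the counts. The largest step was 1.17-fold for Nnt, and it set 1 mouse, mKO mouse 4, below the other 23. For Wdfy1 it was 1.08-fold and set mWT mouse 2 above the rest. For Ide the largest step was 1.06-fold, within the females, with 11 mice below it. Inside single groups the largest step was 1.22-fold, for Nnt in fKO, where fKO mouse 4 (177 CPM) stood above the other 5 (135 to 144 CPM).

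**Figure D3:**
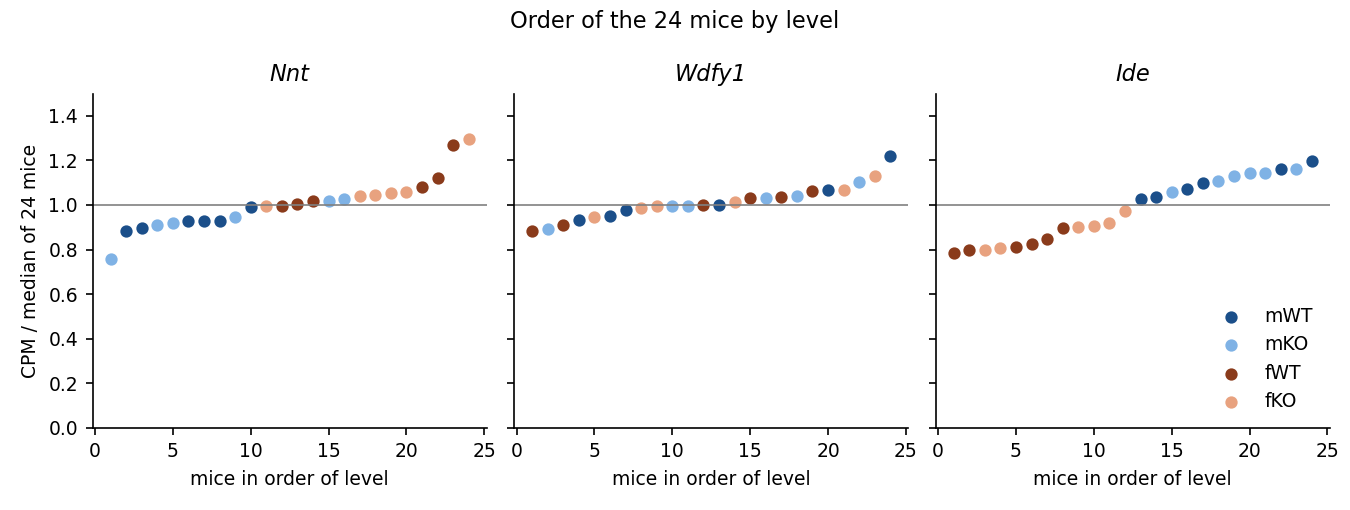
Level of each mouse divided by the median of all 24 mice (vertical axis, linear from 0) for Nnt, Wdfy1 and Ide, with mice in order of level and coloured by group. The points form a gradual slope with no step larger than 1.17-fold, groups of both genotypes are mixed along it, and for Ide the 12 females precede the 12 males.

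Levels can be compared between the genes only per length. Divided by the summed length of annotated exons, Nnt had 18.0 ± 0.717 (SD, n = 6) and Ide 14.98 ± 0.928 CPM per kilobase in mWT mice, and Wdfy1 was lowest with 5.67 ± 0.586. The order Nnt, Ide, Wdfy1 held in every group. In fWT mice the values were 21.0 ± 2.02 for Nnt and 11.3 ± 0.546 for Ide, so that these neighbours in the order lay farther apart in females. The values depend on the length used. Per kilobase of the longest transcript they were 36.5 for Nnt, 22.7 for Ide and 8.09 for Wdfy1 in mWT mice, in the same order but with Nnt farther from Ide.

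The level of Ide differed between the sexes in both genotypes. Its fWT/mWT ratio was 0.754 (0.695 to 0.818), a log2 fold change of -0.41 ± 0.057 (SE, edgeR quasi-likelihood test, p-value of 1.39e-07, adjusted p = 8.82e-06). The fKO/mKO ratio was 0.788 (0.726 to 0.854), a log2 fold change of -0.34 ± 0.057 (p-value of 2.24e-06, adjusted p = 9.47e-05). All 6 females lay below all 6 males in each genotype. How many of all genes tested have the ranges of the sexes apart in this way was not counted. The sexes differ widely in liver, with 18.2% of genes tested called in wildtype and 15.9% in KO mice. Of these genes tested, 81.8% had a smaller sex difference than Ide in wildtype mice and 78.2% in KO mice.

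Nnt was higher in females by a smaller margin. The fWT/mWT ratio was 1.17 (1.05 to 1.30, edgeR quasi-likelihood test, p-value of 0.00674, adjusted p = 0.0421), and the ranges of the groups did not overlap, although the lowest fWT mouse (135.6 CPM) and the highest mWT mouse (135.2 CPM) nearly met. The fKO/mKO ratio was 1.16 (1.04 to 1.30, p-value of 0.00799, adjusted p = 0.0538), with 5 of 6 fKO mice above every mKO mouse. In each genotype the unadjusted p-value rose above 0.01 in 8 of the 24 fits that left out 1 mouse. Only mice of the 2 groups compared could move the ratio itself by much in these fits. The p-value rose up to 0.0319 without fWT mouse 5 (log2 fold change 0.17) and 0.0322 without fKO mouse 4 (0.16). The sex difference of Wdfy1 was not called, with ratios of 0.964 (0.873 to 1.06, p-value of 0.454) in wildtype and 1.01 (0.918 to 1.12, p-value of 0.786) in KO mice.

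Markers of other liver cells were compared between the sexes as well. The backgrounds were 18.2% of genes tested called in wildtype and 15.9% in KO mice, in either direction. In fWT against mWT mice, 3 of 4 Kupffer cell markers and 3 of 3 markers of sinusoidal endothelium were called higher, and their summed levels were 114 to 211 against 63.04 to 128 CPM and 88.4 to 114 against 72.3 to 93.0 CPM. Stellate cell markers (1 of 3 called) summed to 225 to 296 CPM in fWT and 149 to 276 CPM in mWT mice. In KO mice, whose Kupffer cell markers summed to 62.3 to 170 CPM in males and 96.2 to 167 CPM in females, 0 of 4 Kupffer cell, 1 of 3 endothelial and 2 of 3 stellate cell markers were called higher in females. The 2 blood markers were not called in wildtype mice but were both called lower in females in KO mice (Hba-a1 -1.14 and Hbb-bt -1.11 on the log2 scale), with sums of 13.6 to 29.2 CPM in mKO and 7.42 to 9.995 CPM in fKO mice. Of the hepatocyte markers, Ahsg was called higher in females in both genotypes, Ttr was called lower in fKO than in mKO mice (-0.42), and the others were not called. Their part in the sex difference of Nnt and Ide was not tested, and in tissue samples fewer cells of a type and less RNA per cell cannot be told apart.

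**Figure D4:**
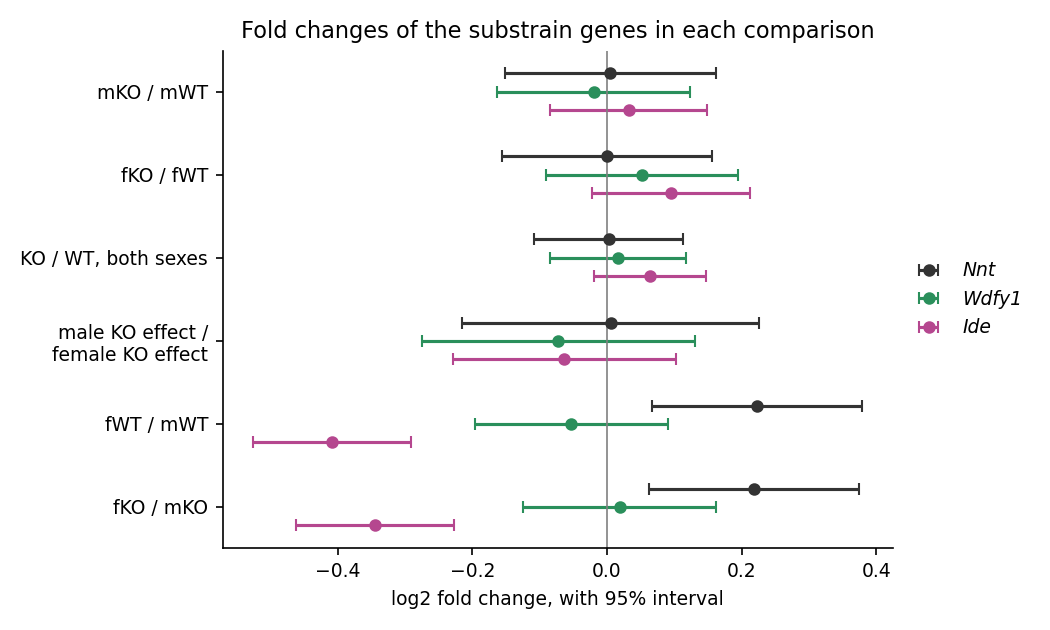
Log2 fold changes (horizontal axis) of Nnt, Wdfy1 and Ide in the 6 comparisons, as points with 95% intervals from the edgeR fit of 24 libraries. All intervals for the KO comparisons and for the difference between the male and female KO effect include 0, and those of the sex comparisons exclude 0 for Nnt (0.22 in both genotypes) and Ide (-0.41 and -0.34).

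Other genes at which C57BL/6 substrains or sublines are known to differ were compared as well, at the background shares of calls given above. Of 7 such genes, Entpd4b and Crb1 were at 0 in all libraries and Fgfbp3 was below the filter, and 0 of the 4 tested were called for any KO effect. Nlrp12, which encodes an intracellular receptor of innate immunity and was singled out after its values were seen, had by far the most reads of them. Its level was 48.8 ± 14 CPM (SD, n = 6) in mWT and 69.9 ± 12.7 CPM in mKO mice, and 32.2 ± 12.6 CPM in fWT and 38.2 ± 8.60 CPM in fKO mice. The ranges of mWT (33.3 to 67.7 CPM) and mKO mice (57.5 to 85.9 CPM) overlapped. Its log2 fold change was 0.52 ± 0.24 in males (SE, edgeR, unadjusted p-value of 0.0404, adjusted p = 0.447) and 0.38 ± 0.17 over both sexes (unadjusted p-value of 0.0330, adjusted p = 0.465), short of the threshold of 0.01. The median of the 4 tested genes over both sexes was 0.25. The highest was 0.57 ± 0.59 (SE) for Mmrn1, which encodes a multimerin, a carrier of factor V in platelets, and which had 1 to 168 counts per library. Mmrn1 varied widely within groups, from 0.534 ± 0.302 CPM (SD, n = 6) in fWT to 1.72 ± 2.44 CPM in fKO mice.

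Genes of mitochondrial NADPH supply and peroxide removal, the pathway that Nnt serves, were read beside it. In males 1 of the 13 tested was called, at a background of 3.52%. This was Gsr, which encodes glutathione reductase, and mWT mice had 55.6 ± 7.39 CPM and mKO mice 66.1 ± 3.06 CPM of it (SD, n = 6). The log2 fold change was 0.25 ± 0.084 (SE, edgeR quasi-likelihood test, p-value of 0.00696, adjusted p = 0.247). In females and over both sexes 0 of 13 were called, and the latter effects ran from -0.079 ± 0.053 for Txn2, mitochondrial thioredoxin, to 0.16 ± 0.060 for Gsr. Their median was 0.030. The median of the list was 0.14 in males and -0.0066 in females, against -0.0021 and -0.0026 for all genes tested. For the difference between the male and the female KO effect 0 of 13 were called, at a background of 1.16%. By sex in wildtype mice, 1 of the 13 was called higher in females and 2 lower, at a background of 18.2%. Idh2, the mitochondrial NADP-dependent isocitrate dehydrogenase, was higher in females as Nnt was (log2 fold change 0.42 ± 0.098). The lower ones were Prdx5 (-0.36 ± 0.088) and Gsr (-0.28 ± 0.085). In KO mice 0 of the 13 were called higher in females and 3 lower, at a background of 15.9%. Idh2 was not called there (0.23 ± 0.098).

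Relatives of Wdfy1 and genes of the Toll-like receptor 3 and 4 pathway gave 0 calls among 10 tested in each KO comparison, at backgrounds of 3.52% in males, 0.876% in females and 2.83% over both sexes. Over both sexes the log2 fold change ranged from -0.15 ± 0.093 (SE) for Tlr3, the endosomal receptor of double-stranded RNA, to 0.021 ± 0.050 for Traf6, a ubiquitin ligase of the pathway. The median was -0.049. Between fWT and mWT mice, 1 of the 10 was called higher in females and 2 lower, at a background of 18.2%. Wdfy4 was higher (0.82), and Wdfy3 (-0.24) and Traf6 (-0.22) were lower. Their unadjusted p-values were 0.00221, 0.00643 and 0.00386 by edgeR's quasi-likelihood test, whereas Wdfy1 itself was not called. Between fKO and mKO mice 0 of the 10 were called, at a background of 15.9%. There Wdfy4 had 0.56, Wdfy3 -0.058 and Traf6 -0.029.

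The metallopeptidase family of Ide and genes of insulin uptake and signalling gave 0 calls among 11 tested in each KO comparison, at the same low background. Effects over both sexes ran from -0.33 ± 0.20 (SE) for Irs2 to 0.15 ± 0.18 for Irs1, both adaptors of the insulin receptor, with a median of 0.017. Irs2 was higher in females than in males, at 59.9 ± 27.9 CPM (SD, n = 6) in fWT and 25.8 ± 6.05 CPM in mWT mice. This was a log2 fold change of 1.21 ± 0.28 (SE, edgeR quasi-likelihood test, p-value of 0.000342, adjusted p = 0.00485), and it was the one gene of the 11 called between fWT and mWT mice, at a background of 18.2%. In KO mice Irs2 was again called higher in females, and Uqcrc1, a subunit of respiratory complex III from the peptidase family of Ide, was called lower.

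For Entpd4, the countable genes of its enzyme family give the only view of the pathway. Of 7 related apyrases tested, 0 were called for any KO effect, at backgrounds of 3.52% in males, 0.876% in females and 2.83% over both sexes. The effects over both sexes lay between -0.087 ± 0.10 (SE) for Entpd7 and 0.12 ± 0.12 for Entpd2. Their median was 0.0019. By sex in wildtype mice, 3 were called higher in females and 2 lower, at a background of 18.2%. Entpd5, the most abundant at 360 ± 56.3 CPM (SD, n = 6) in mWT and 282 ± 9.94 CPM in fWT mice, was among the lower ones, with a log2 fold change of -0.35 ± 0.098. In KO mice 0 of the 7 were called higher in females and 2 lower, at a background of 15.9%. The lower ones there were Entpd5 (-0.37) and Entpd7 (-0.41).

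The genes next to each member in the genome were compared as well. Within 1 Mb of the start of each gene, 6 tested neighbours lay around Nnt, 5 around Wdfy1, 16 around Ide and 12 around Entpd4. Around Nnt and Ide 0 neighbours were called in any KO comparison. The nearest were Paip1, which starts 19.6 kb from Nnt (log2 fold change over both sexes 0.0075 ± 0.064), and, on either side of Ide, Kif11 (38.6 kb, -0.023) and Cpeb3 (129 kb, -0.065). Mrpl44, which starts 0.125 kb from Wdfy1, had 0.015.

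Serpine2, an inhibitor of serine proteases that starts 85.0 kb from Wdfy1, was called over both sexes, with a log2 fold change of 0.55 ± 0.18 (SE, edgeR quasi-likelihood test, p-value of 0.00517, adjusted p = 0.299). It was also much lower in females (-2.32 in wildtype mice). Ppp3cc, a catalytic subunit of calcineurin that starts 952 kb from Entpd4, was called lower in mKO than in mWT mice (-0.48 ± 0.16, p-value of 0.00661, adjusted p = 0.241). No other neighbour of any member was called in a KO comparison. That makes 1 of 39 neighbours over both sexes at a background of 2.83% and 1 of 39 in males at 3.52%.

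**Figure D5:**
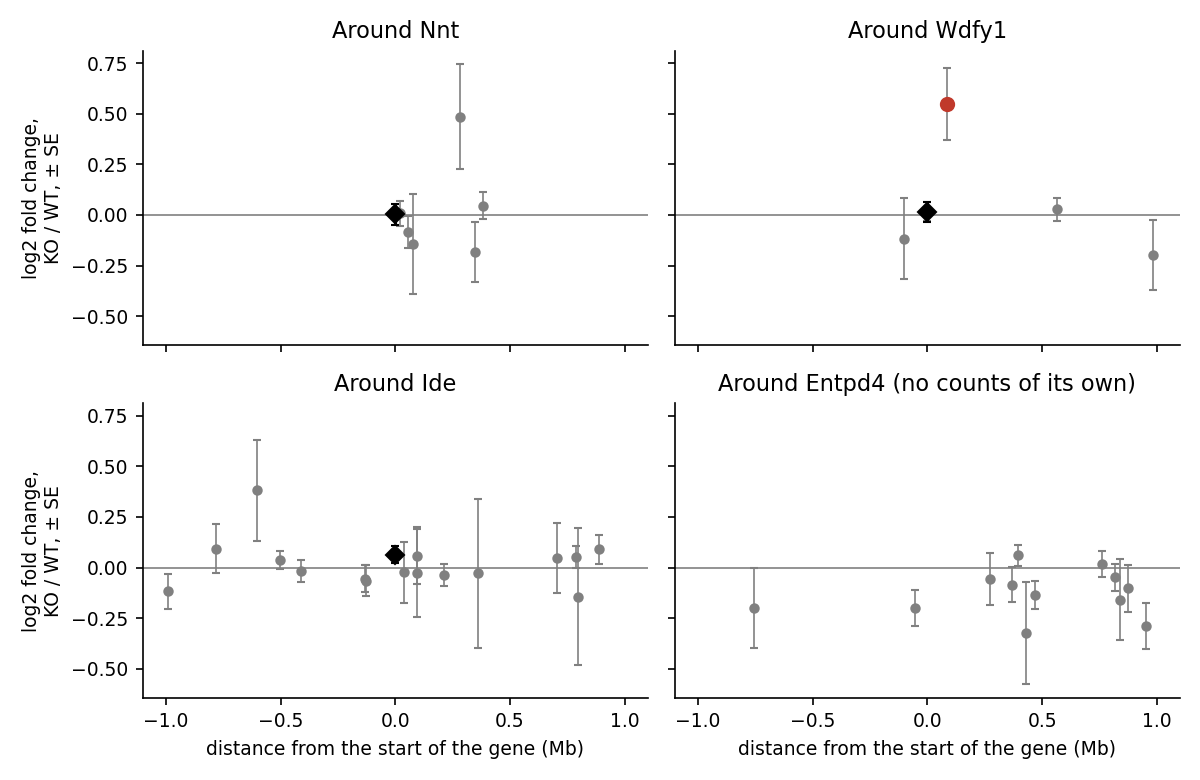
Log2 fold change of KO against wildtype over both sexes (vertical axis, ± SE) of the tested genes around each member against the distance of their start from the start of the member in Mb (horizontal axis, positive toward higher coordinates). Black diamonds mark the members, and Serpine2 near Wdfy1 (0.55, red) is the one neighbour with an unadjusted p-value under 0.01 in this comparison.

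Among the 7 hepatocyte markers, 1 was called in males and 1 over both sexes, at backgrounds of 3.52% and 2.83%. Ttr was higher in mKO than in mWT mice (log2 fold change 0.30 ± 0.097, p-value of 0.00427, adjusted p = 0.212 by edgeR). Fgb was higher in KO mice over both sexes (0.23 ± 0.074, edgeR p-value of 0.00449, adjusted p = 0.299). The other lists of cell markers gave 0 calls for the KO effects in males, in females (background 0.876%) and over both sexes. For the difference between the male and the female KO effect, the blood marker Hbb-bt was called, at a background of 1.16%. Its log2 difference was 0.81 ± 0.28 (SE, edgeR p-value of 0.00864, adjusted p = 0.816). Krt7 and Krt19 of bile ducts and Cd3e and Cd79a of lymphocytes were below the filter.

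After the mean of each group was subtracted, the genes that followed each member most closely over the 24 libraries were found by Pearson correlation of log2 CPM, as a description. For Nnt they were Armc10 (r = 0.81), Hexa (0.80) and Aph1a (0.75), for Wdfy1 Sp3 (0.88), Tnpo1 (0.82) and Dhdh (0.81), and for Ide Vcp (0.82), Rtf1 (0.77) and Irak1 (0.74). By Spearman correlation the 3 closest genes to Nnt were others (Abhd2, Acot2 and Dpys), Sp3 was kept for Wdfy1, and Vcp and Irak1 were kept for Ide. All points share the depth and scaling of their library. The members did not follow each other closely, with r = 0.28 for Nnt and Wdfy1, -0.40 for Nnt and Ide and -0.11 for Wdfy1 and Ide.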

How the data were processed

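Liver RNA of 24 mice was sequenced by the authors as stranded 100 bp single-end libraries in one multiplex. Per the labels and the methods of the study, reads were processed with bcl2fastq 2.19, fastp 0.20 and STAR 2.7a against GRCm38.p6 and counted with featureCounts. The deposited values are whole-number read counts for each Ensembl identifier. The annotation release, the strand setting and the handling of reads that match several places or genes are not given in the sources used here. Names and coordinates came from GENCODE M21, which matched 25635 of 25746 identifiers.

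Genes with 0.66 CPM or more in 6 or more libraries were kept, as one reading of the cut-off of the study, whose wording allows others, so the genes kept need not be those of the study. TMM scaling and the robust quasi-likelihood test of edgeR 4.0.16 (R 4.3.3) were applied to all 24 libraries with a mean for each group. CPM values are scaled by TMM, a call is an unadjusted p-value under 0.01, and adjusted p-values are Benjamini-Hochberg over all genes tested. In simulated data of 12330 genes for mKO against mWT, 91% of 2-fold and 99% of 4-fold changes were called, and 1.04% of unchanged genes. All 100-base windows of annotated transcripts were compared between loci. Figures were drawn with matplotlib 3.10.9.

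The genes and lists were chosen with earlier results of these data known. Named are the 4 members, the list genes called for a KO effect or otherwise those with the extreme effects over both sexes, the called or otherwise nearest neighbours, and the 3 genes most like each member. Values of a further list gene are not reported here. Other genes named for a sex difference or an overlap, and Nlrp12, were chosen after their values were seen. Replicates were not duplicates (lowest chi-square per gene 8.14). Alternatives were DESeq2 1.42.0, its size factors, other filters and dispersion settings, removal of Mup genes, fits of 2 groups, a replicate block, the second Nnt identifier, and leaving out mice.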

Additional observations from a re-analysis of the deposited data

Results flagged for a closer look

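Nnt in fKO mice was set apart by 1 mouse. The level was 177 CPM in fKO mouse 4 and 135 to 144 CPM in the other 5, and the gap to the nearest mouse made up 0.784 of the range of the group, above Dixon's critical value. Of the 12 groups of 6 mice examined for the 3 genes, 1 held such a mouse, and chance alone gives about 1 in 20. Without this mouse the log2 fold change of Nnt between fKO and fWT mice was -0.055, and that between fKO and mKO mice was 0.16, no longer called (edgeR, unadjusted p-value of 0.0322).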

How the results depend on the processing

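Of 612 values of the 3 tested members under other settings (edgeR or DESeq2), 544 kept their direction and their side of the threshold. Another 49 changed sign with no p-value under 0.01 on either side, and 19 lost a call, all of them the sex difference of Nnt. The 612 include fits that left out a mouse of neither group compared. In such fits the fold change could hardly move, so the 544 cannot be read as a measure of stability. The sex difference of Ide kept its call throughout, with log2 fold changes between -0.43 and -0.38 in wildtype and between -0.38 and -0.32 in KO mice.

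The KO effect on Nnt lay near 0, so its sign turned with small changes. In females it was 0.0021 with no filter, 0.0040 with filterByExpr, 0.0066 with DESeq2 size factors, 0.0019 with Mup genes removed, 0.0014 with fKO and fWT alone and 0.0067 in DESeq2. Without the 3 KO libraries that held a Mup read, an alternative chosen after seeing the data, it was -0.025 in males, 0.019 in females, -0.044 for the difference of the sexes and -0.0031 over both sexes.

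When each mouse was left out in turn, the KO effect on Nnt ranged from -0.025 to 0.058 in males, from -0.055 to 0.052 in females, from -0.048 to 0.061 for the difference of the sexes and from -0.024 to 0.029 over both sexes. The KO effect on Wdfy1 in males ranged from -0.047 to 0.036. Its sex difference ranged from -0.079 to 0.0026 in wildtype and from -0.015 to 0.046 in KO mice. The sex difference of Nnt ranged from 0.17 to 0.25 in wildtype and from 0.16 to 0.25 in KO mice. The number of genes called ranged from 284 (without mWT mouse 5) to 525 in males and from 225 (without fKO mouse 2) to 472 over both sexes.

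With mKO and fKO alone, the sex difference of Nnt in KO mice was 0.22 and was not called. With a replicate block the KO effect on Nnt was -0.00076 in males and -0.00079 over both sexes, its sex difference was 0.22 in wildtype and 0.22 in KO mice, neither called, and the number of genes called was 372 in males, 78 in females and 291 over both sexes. No pairing by replicate number was seen, and what the numbers stand for is not labelled. Deviations of same-numbered mice correlated at -0.45 to 0.32, over 0.1 in at most 3 of 6 pairs. At most 2 of 6 mice correlated best with their own number. Counts per library (546 or more for each tested member) leave the spread between mice as the larger error.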
